A study of Mus musculus with 84 samples.

Results

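The genes described here build, bind or cut the extracellular matrix. They are the collagen chains, laminin chains, integrin subunits, fibulins and fibrillins, thrombospondins, matrix metalloproteinases (MMPs), ADAM and ADAMTS proteases and tissue inhibitors of metalloproteinases (TIMPs) whose gene symbol, with its number, was the only symbol of at least 1 clone on a spotted mouse cDNA array of 15360 clones (the 15k array). The choice used gene names alone and no measured value. It took in 67 genes of 7766, carried by 103 of 11860 clones with a single symbol, and clones of a gene were averaged. There were 7 fibrillar collagens, 4 collagens of basement membranes and anchoring fibrils, 8 other collagens, 6 laminins, 12 integrins, 2 fibulins or fibrillins, 3 thrombospondins, 7 MMPs, 10 ADAMs, 6 ADAMTS proteases and 2 TIMPs. Of these genes 40 rested on 1 clone and 27 on 2 or more.

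The study followed mammary tumorigenesis in mice that carry an oncogene under the mouse mammary tumor virus (MMTV) promoter, which is active mainly in mammary epithelium. Sample RNA, labeled with Cy5, was hybridized against a common Cy3-labeled reference, a pool of RNA from mouse organs that included lactating mammary gland. A value is therefore a log2 ratio of sample to reference, and 0 means the level of the reference. The groups were 10 lung metastases of MMTV-Wnt-1 transgenic mice, 23 MMTV-Wnt-1-induced mammary tumors (mice aged 9 to 56 weeks), 7 hyperplastic mammary glands of MMTV-Wnt-1 mice (9 weeks), 5 lung metastases of Neu tumor cells, 12 MMTV-Neu-induced mammary tumors (32 to 60 weeks), 3 samples of intestinal fat of virgin FVB mice (12 weeks) and 5 mammary glands of virgin nontransgenic FVB mice (9 weeks). Of the Neu metastases 3 grew in MMTV-Neu mice and 2 in nontransgenic mice after injection of Neu tumor cells into the tail vein. The tail-vein samples, numbered 53 and 56, share these numbers with metastases of MMTV-Neu mice. The labels do not say whether they share a donor, and all 5 were fitted as separate samples. The MMTV-Neu line carries a rat cDNA of wild-type Neu on a pure FVB background, whereas MMTV-Wnt-1 mice were a mixture of FVB, SJL and C57BL/6. Oncogene, age and strain background cannot be told apart between the tumor models. Against virgin glands, strain background cannot be told apart from the transgene in MMTV-Wnt-1 samples, nor age from tumor state in Neu tumors. Wnt-1 tumors also came from mice of up to 56 weeks, against 9 weeks for virgin and hyperplastic glands. The Wnt-1 tumors include some with Ha-Ras mutations, which the labels do not assign to samples. Ages of the mice with metastases were not given in the sources used here.

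In breast tissue the epithelium sits on a basement membrane made of type IV collagen and laminin networks, and the stroma around it holds fibrils of collagens I, III and V. Integrins are pairs of an alpha and a beta chain that bind these proteins from the cell surface: alpha3 and alpha6 chains serve laminins, alpha1 and alpha11 chains collagens, and the beta3 and beta5 chains pair with alpha v to bind vitronectin and related proteins. MMPs, ADAMs and ADAMTS proteases cleave matrix and surface proteins, and TIMPs inhibit MMPs. Most fibrillar collagen is made by fibroblasts, so in whole tissue its transcript level also depends on how much stroma the sample holds.

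Array medians lay between -0.144 and 0.0431. The SD of the log2 ratios had a median of 0.936 over the 65 arrays, and 6 arrays stood apart with an SD over 1.3: fat 44 (2.59), Wnt-1 metastases 19, 50 and 52 and Wnt-1 tumors 42 and 49. Of the values of the 67 genes 16 were ratios under 0.01, and 9 of these were on fat 44. The labelled tissues were checked against marker genes. The mean level of 9 adipocyte markers ran from 3.26 to 3.52 in fat, 2.13 to 2.46 in virgin glands, 0.94 to 1.44 in hyperplastic glands, -2.21 to -0.77 in Wnt-1 tumors and -1.86 to -0.94 in Neu tumors. That of 6 lung epithelium markers ran from -0.76 to 1.08 in Wnt-1 metastases and -5.38 to -2.41 in Wnt-1 tumors, and from -1.56 to 0.62 in Neu metastases and -3.56 to -2.57 in Neu tumors. In these bulk samples fewer cells of a type and less RNA per cell cannot be told apart.

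**Figure D1:**
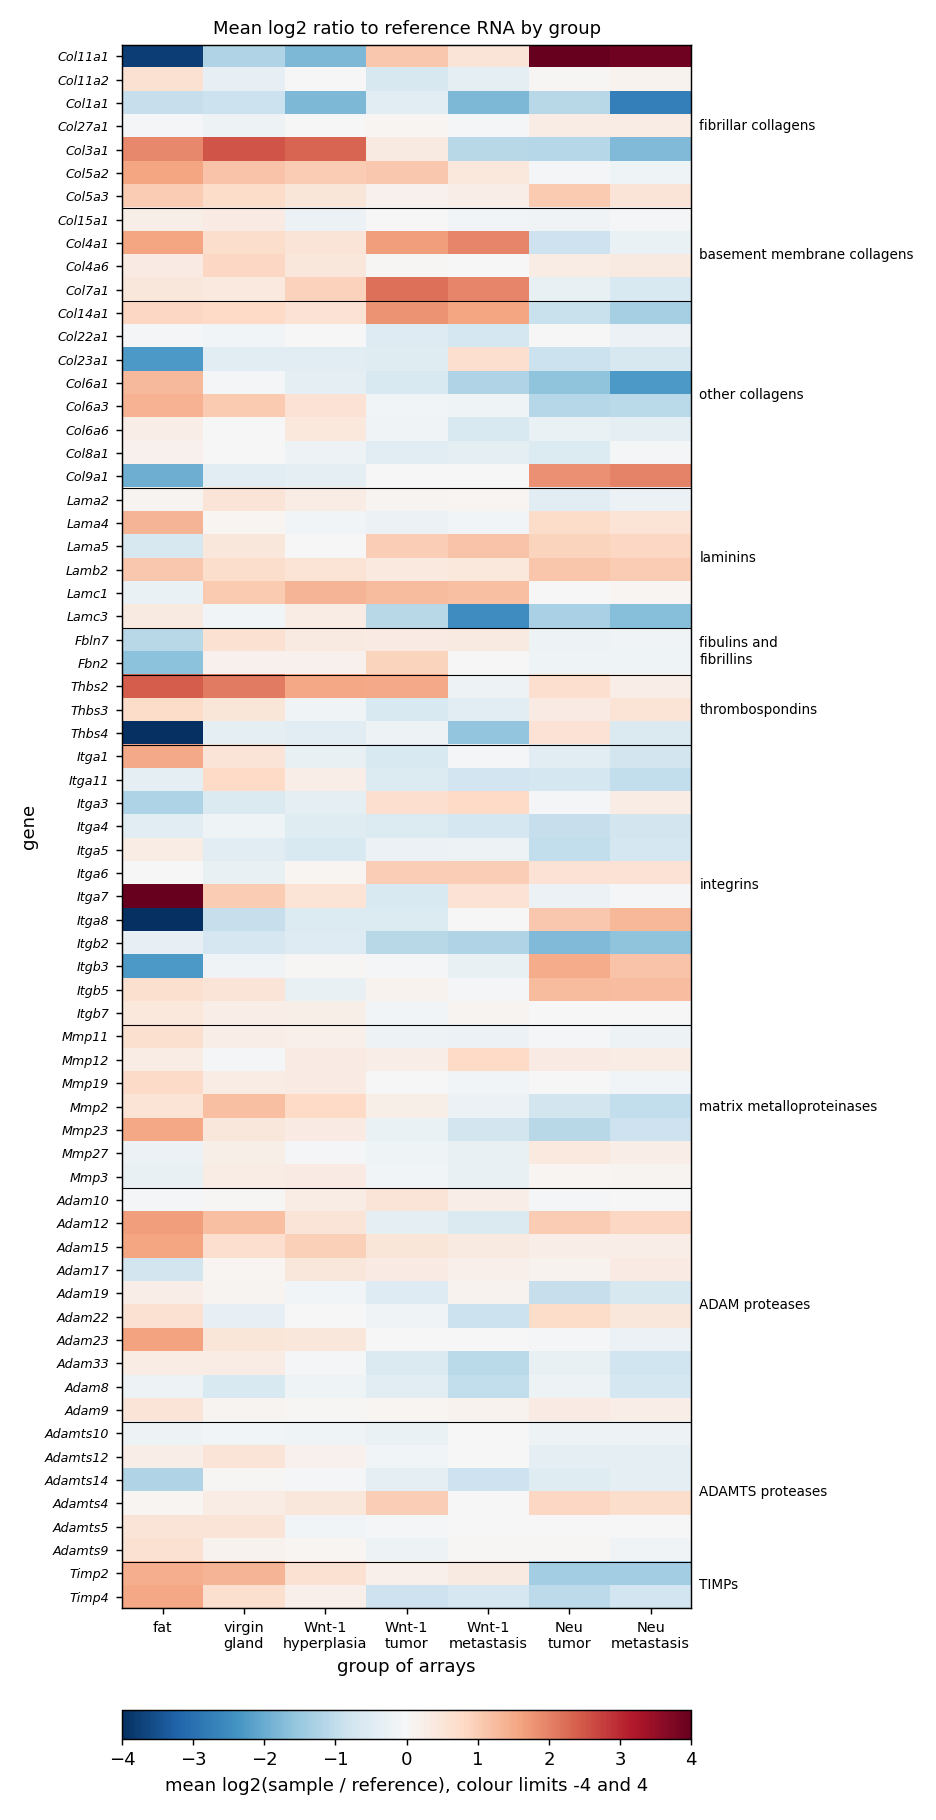
Mean log2 ratio of sample to reference for each of the 67 genes (rows, by family) in each of 7 groups of arrays (columns), with red above and blue below the reference and colours limited at -4 and 4. Col11a1 averages 4.37 in Neu tumors and -1.19 in virgin glands, while Col3a1 averages -1.15 in Neu tumors and 2.51 in virgin glands.

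Levels varied more between tumors than between normal glands. The SD of a gene within its group had a median over the 67 genes of 0.46 among Wnt-1 tumors, 0.40 among Neu tumors, 0.28 among hyperplastic glands and 0.22 among virgin glands, beside medians over all 7766 genes of 0.27, 0.26, 0.22 and 0.19 in the same groups. The widest spread among Wnt-1 tumors was that of Col1a1, the main chain of type I collagen (SD 1.80, n = 23), whose single clone ranged from -6.70 on array 42 to 2.59. With all arrays Col1a1 passed the test in none of the comparisons below, but it did under some alternatives, examined for this gene after the data had been seen. Without the arrays of SD over 1.3 Col1a1 was higher in Wnt-1 tumors than in Neu tumors (difference 1.00, adjusted p = 0.044, against 0.70 and 0.321 with all arrays) and than in hyperplastic glands (1.68, adjusted p = 0.00406, against 1.37 and 0.103).

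The comparison between the oncogenes asked how MMTV-Wnt-1-induced tumors differ from MMTV-Neu-induced tumors. Many matrix genes differed, and the largest differences were between collagens. Wnt-1 tumors had more of the anchoring fibril collagen Col7a1, the basement membrane chain Col4a1 and the fibril-associated collagen Col14a1, each over 5-fold. They had 9.87-fold less of the minor fibrillar collagen Col11a1. Col7a1, Col4a1 and Col11a1 each rested on 1 clone. With limma and Benjamini-Hochberg adjusted p under 0.05 over all genes, 24 of the 67 were higher and 16 lower in Wnt-1 tumors (59.7%). Of all genes 45.8% passed, 22.8% higher and 23% lower. The median log2 difference over the 67 genes was 0.09, and -0.03 over all genes. In 7 of the 67 genes the groups did not overlap at all, beside 5.32% of all genes.

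Col4a1 had log2 ratios of 0.28, 1.84 and 2.22 in Wnt-1 tumors (lowest, median and highest), against -1.21, -0.85 and -0.27 in Neu tumors. Every Wnt-1 tumor was above every Neu tumor, and the difference was 2.48 ± 0.14 on the log2 scale (SE), or 5.6-fold (adjusted p = 1.24e-16). Col7a1 had 1.29, 2.08 and 3.59 in Wnt-1 tumors, against -1.08, -0.32 and 0.67 in Neu tumors, again without overlap (5.72-fold higher, adjusted p = 1.37e-12). Col14a1, which binds along the surface of collagen I fibrils, had 0.61, 1.78 and 2.71 in Wnt-1 tumors, against -2.14, -0.89 and 0.38 in Neu tumors. It was 6.53-fold higher without overlap (adjusted p = 1.7e-13), and its 2 clones gave differences of 2.94 and 2.48.

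Col11a1 ran the other way, with -3.71, 1.35 and 2.90 in Wnt-1 tumors, against 2.86, 4.54 and 5.33 in Neu tumors. A single Wnt-1 tumor reached into the range of the Neu tumors, and the lowest value came from Wnt-1 tumor 38 (difference -3.30 ± 0.39, adjusted p = 8.39e-09). Itga8, the alpha8 integrin chain, had -1.08, -0.50 and 0.04 in Wnt-1 tumors, against 0.35, 1.00 and 1.83 in Neu tumors. It was 3.09-fold lower without overlap (adjusted p = 3.58e-13). Nephronectin (Npnt), a known ligand of the alpha8 beta1 integrin, was 24.6-fold lower in Wnt-1 tumors (adjusted p = 8.96e-25). Col9a1, a collagen known from cartilage, was lower by the mean of its clones (difference -1.84), but its 2 clones disagreed, at -3.53 (adjusted p = 3.54e-12) and -0.14 (adjusted p = 0.473), so no change of the gene is read from it.

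**Figure D2:**
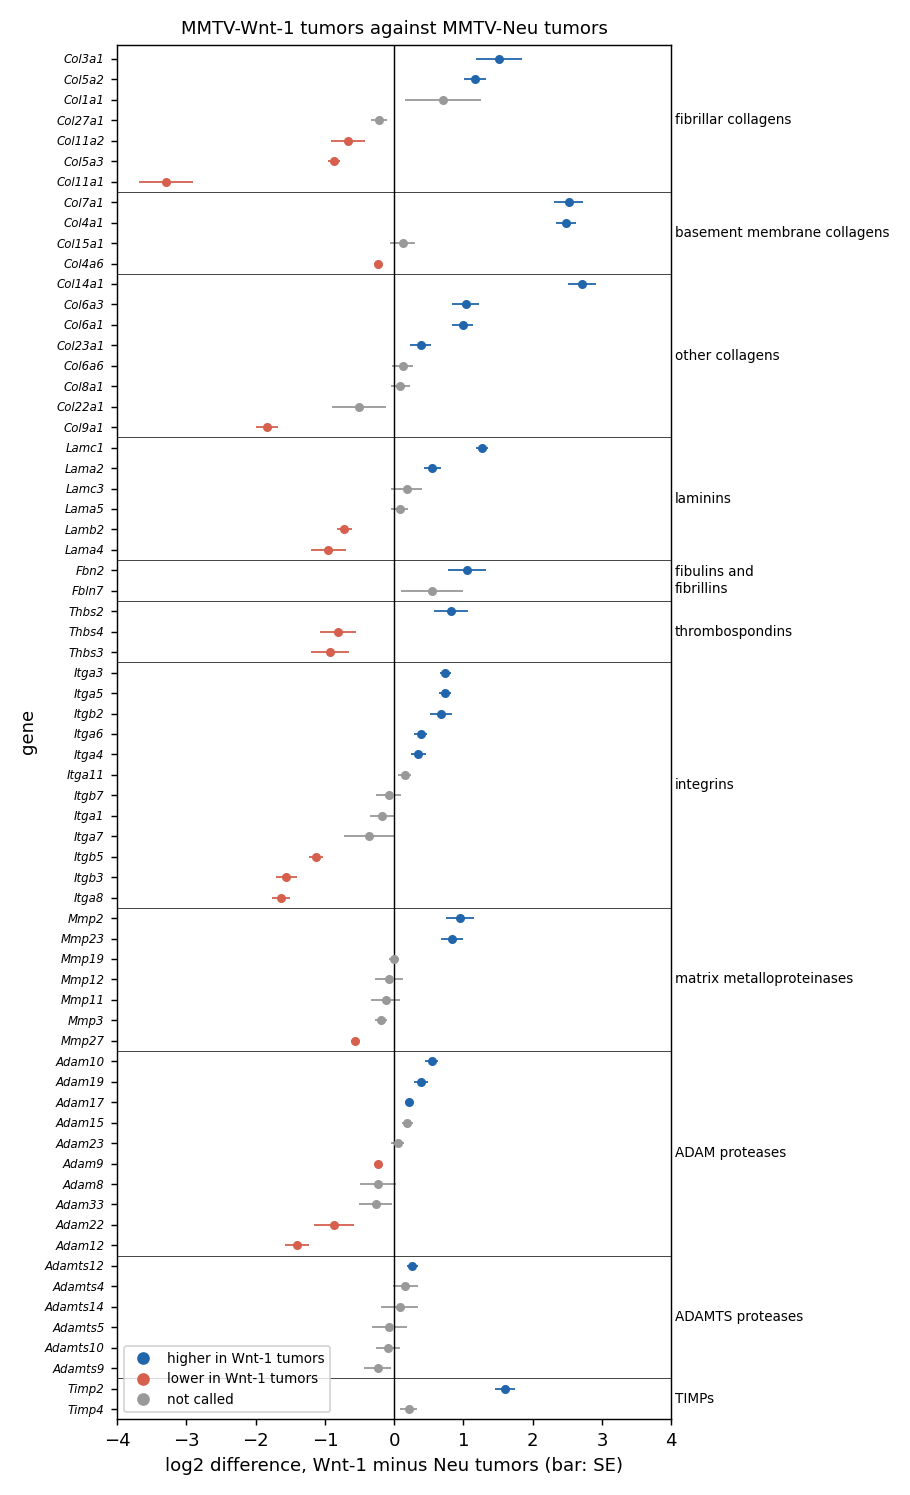
Log2 difference of Wnt-1 minus Neu tumors (points, with SE bars) for the 67 genes, by family. Blue marks 24 genes higher in Wnt-1 tumors, red 16 lower and gray 27 that did not pass the test; Col14a1, Col7a1 and Col4a1 lie farthest right and Col11a1 farthest left.

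Among the fibrillar collagens 2 of 7 were higher and 3 lower. Col3a1, the chain of type III collagen, was 2.84-fold higher (0.36 ± 0.84 in Wnt-1 tumors, n = 23, and -1.15 ± 1.15 in Neu tumors, n = 12, SD, adjusted p = 0.000248), and Col5a2, a chain of type V collagen, 2.25-fold higher. Col5a3, another chain of type V collagen, was instead 1.82-fold lower (0.17 ± 0.21 in Wnt-1 tumors and 1.04 ± 0.25 in Neu tumors, adjusted p = 2.64e-11), and Col11a2 was 1.59-fold lower. Chains assigned to the same collagen type thus differed in opposite directions, though Col5a3 rested on 1 clone. Of the other collagens Col6a1 and Col6a3, chains of the beaded filaments of type VI collagen, were 1.99-fold and 2.05-fold higher, while Col6a6 did not pass. Col4a6, another type IV chain, was 1.18-fold lower.

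Of the laminin chains 2 of 6 were higher and 2 lower. Lamc1, the gamma1 chain that most laminins share, had 0.46, 1.26 and 1.85 in Wnt-1 tumors, against -0.30, -0.04 and 0.26 in Neu tumors, with no overlap and both clones higher (2.4-fold, adjusted p = 1.37e-14). Lama2, a chain of muscle and nerve basement membranes, was 1.47-fold higher. Lamb2 was 1.64-fold lower. Lama4, a chain found around blood vessels and fat cells, was 1.93-fold lower, but only 1 of its 2 clones passed (differences -1.72 and -0.18). Lama5 differed by 0.08 and did not pass.

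Of the 12 integrin subunits 5 were higher and 3 lower. The laminin-binding chains Itga3 and Itga6 were 1.67-fold and 1.3-fold higher in Wnt-1 tumors, the fibronectin-binding chain Itga5 1.66-fold higher, and the leukocyte chain Itgb2 1.6-fold higher. The beta chains that pair with alpha v were lower. Itgb3 had -0.98, -0.06 and 0.62 in Wnt-1 tumors, against 0.94, 1.40 and 2.22 in Neu tumors, without overlap (2.94-fold lower, adjusted p = 1.39e-10). Itgb5 had -0.18, 0.16 and 0.41 in Wnt-1 tumors, against 0.36, 1.25 and 1.89 in Neu tumors (2.19-fold lower, adjusted p = 2.04e-11), with a small overlap. Itga8, Itgb3 and Itgb5 belong to receptors that recognize arginine-glycine-aspartate in their ligands, as does Itga5, which was higher. Each of the lower chains rested on 1 clone.

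**Figure D3:**
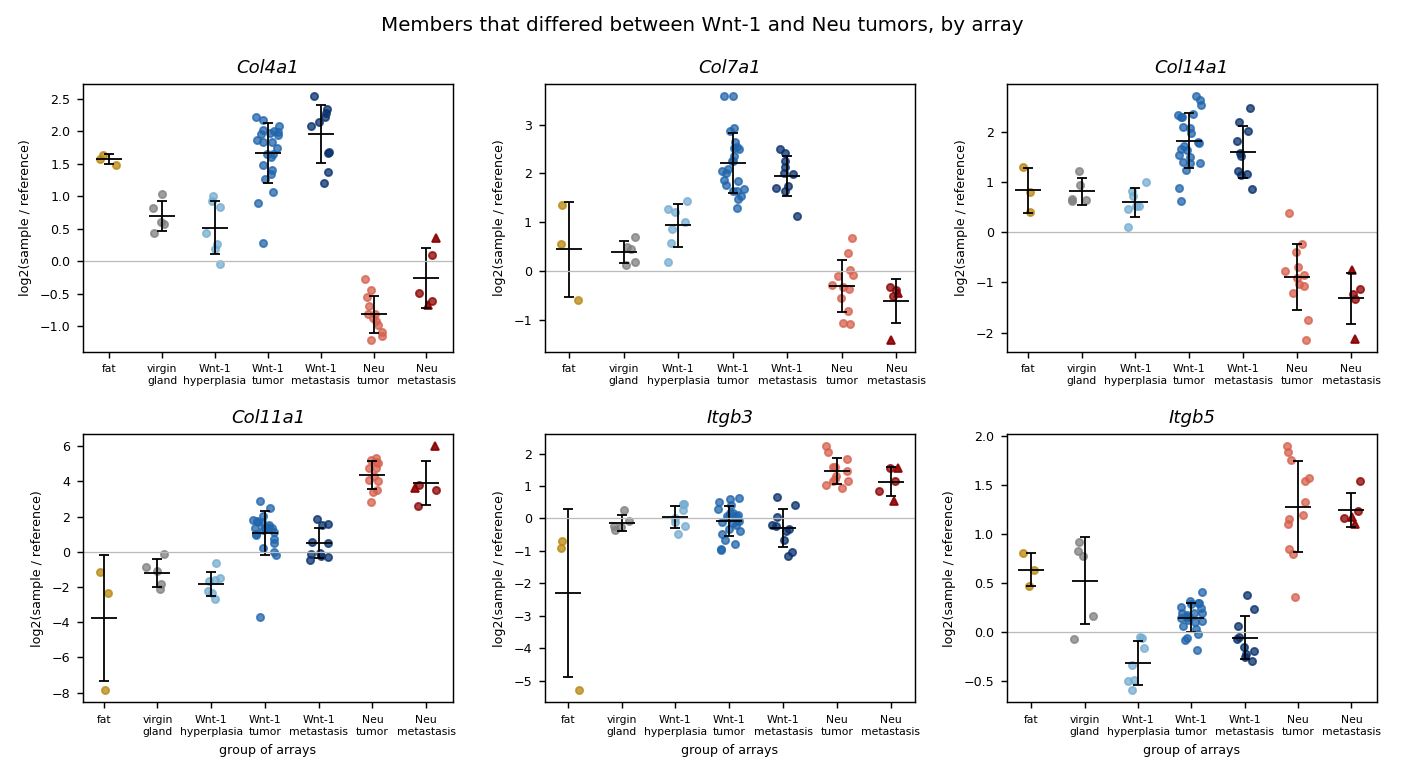
Log2 ratio of sample to reference on every array (points) for 6 genes across 7 groups, with the mean and SD in black and triangles for the 2 tail-vein metastases. Col4a1, Col7a1 and Col14a1 lie higher in Wnt-1 than in Neu tumors and metastases, and Col11a1, Itgb3 and Itgb5 lower.

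Among the proteases and inhibitors the largest difference was that of Timp2, which inhibits MMPs and takes part in the activation of MMP2. It had -0.16, 0.15 and 0.59 in Wnt-1 tumors, against -2.36, -1.22 and -0.55 in Neu tumors, without overlap (3.02-fold higher, adjusted p = 8.72e-12). Its target Mmp2, a gelatinase, was 1.93-fold higher, and Mmp23 1.79-fold higher. Adam12, a protease of muscle and tumor stroma, was 2.64-fold lower in Wnt-1 tumors (-0.38 ± 0.56, n = 23, and 1.02 ± 0.29 in Neu tumors, n = 12, SD, adjusted p = 1.35e-08). Adam10 and Adam17, which shed growth factors and receptors from the cell surface, were 1.45-fold and 1.16-fold higher. Only Adamts12 of the 6 ADAMTS genes passed, at 1.2-fold. The thrombospondins split, with Thbs2 1.77-fold higher and Thbs3 and Thbs4 1.9-fold and 1.75-fold lower.

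Of 17 measured partners of collagens and laminins on a separate list, 12 were higher in Wnt-1 tumors and 1 lower (median difference 0.79), among them versican (Vcan, 5.24-fold), Ecm1 (2.5-fold), tenascin C (Tnc, 2.43-fold), lumican (Lum, 2.27-fold) and nidogen 1 (Nid1, 1.79-fold), which links type IV collagen to laminin. The 1 lower gene was Npnt. Of 7 genes of collagen maturation 2 were higher, Bmp1 (2.07-fold), which trims fibrillar procollagens, and P3h1 (1.72-fold), and 2 lower, Plod1 and Ppib. Of 15 adhesion partners 6 were higher and 4 lower, and of 6 other proteases and inhibitors only Reck passed, 1.2-fold lower. Of the cell type markers 3 of 6 fibroblast markers were higher and 1 lower, with a mean level from -1.25 to 0.11 in Wnt-1 tumors and -1.85 to -0.26 in Neu tumors. Of 5 myoepithelial markers 4 were higher (levels -0.32 to 0.99 in Wnt-1 tumors and -2.05 to -0.67 in Neu tumors), as were 4 of 6 endothelial markers (-1.21 to -0.57 in Wnt-1 tumors and -1.50 to -1.16 in Neu tumors). Of 8 leukocyte markers 3 were higher and 1 lower. The part of these cell types in the differences above was not tested.

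The start regions of 4 of these genes are shown because the genes were the clearest on either side of the comparison and have an entry among 47 of the 67 genes in the RefSeq promoter table. Each is the 250 bases before the annotated start, 5′ to 3′ on the gene's own strand, in GRCm38.p6: Col4a1 at chr8:11312827-11313076 (minus strand) and Col7a1 at chr9:108953336-108953585 (plus strand), both higher in Wnt-1 tumors, and Col11a1 at chr3:114030290-114030539 (plus strand) and Itga8 at chr2:12301945-12302194 (minus strand), both lower. Capitals mark the GC box GGGCGG and the CCAAT box, each on either strand.
Col4a1: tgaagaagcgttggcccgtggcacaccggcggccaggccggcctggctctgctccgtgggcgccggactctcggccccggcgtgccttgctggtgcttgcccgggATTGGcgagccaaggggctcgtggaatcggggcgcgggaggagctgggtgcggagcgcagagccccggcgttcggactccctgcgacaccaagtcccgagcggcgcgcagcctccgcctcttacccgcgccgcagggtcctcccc
Col7a1: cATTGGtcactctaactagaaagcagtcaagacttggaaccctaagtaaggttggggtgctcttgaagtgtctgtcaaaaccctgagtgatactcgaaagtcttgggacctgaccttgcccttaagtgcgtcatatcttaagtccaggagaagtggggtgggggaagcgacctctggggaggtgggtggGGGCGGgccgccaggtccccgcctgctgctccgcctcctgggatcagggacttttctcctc
Col11a1: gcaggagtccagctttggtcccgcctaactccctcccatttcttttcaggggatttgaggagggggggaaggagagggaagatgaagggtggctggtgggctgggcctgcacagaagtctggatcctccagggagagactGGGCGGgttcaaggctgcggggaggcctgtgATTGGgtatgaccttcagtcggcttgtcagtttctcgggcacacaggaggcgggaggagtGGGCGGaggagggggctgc
Itga8: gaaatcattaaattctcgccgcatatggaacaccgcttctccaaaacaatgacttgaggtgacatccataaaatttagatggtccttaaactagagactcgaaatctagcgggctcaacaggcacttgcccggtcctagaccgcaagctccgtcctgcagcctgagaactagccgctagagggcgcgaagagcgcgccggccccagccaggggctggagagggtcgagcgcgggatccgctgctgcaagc
The Col4a1 window held 1 CCAAT box and no GC box, Col7a1 1 of each, Col11a1 1 CCAAT box and 2 GC boxes, and Itga8 neither. GC boxes were found in 24 of the 47 windows (51.1%) and in 32.9% of the windows of 27025 genes, and CCAAT boxes in 12 (25.5%) and in 34.5%. The T-cell factor core, searched as CTTTGAA or CTTTGTA and as CTTTGAT or CTTTGTT on both strands, was in 6 of the 47 (12.8%), in 14.9% of all windows and in none of the 4 printed. The letters say nothing about whether a factor binds there.

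Neu tumors were compared with virgin glands, that is with normal tissue of younger mice. More of these genes were lower than higher in the tumors, led by the stromal collagens Col3a1 (12.7-fold) and Col6a3 (4.6-fold) and by Timp2 (6.76-fold). Col11a1, carried by 1 clone, was 47.4-fold higher. Of the 67 genes 13 were higher and 34 lower (70.1%), where 55.6% of all genes passed (26.8% higher and 28.8% lower). The median difference was -0.34 over these genes and 0.01 over all genes. In 23 of the 67 the groups did not overlap, beside 27.7% of all genes.

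Col11a1 had 2.86, 4.54 and 5.33 in Neu tumors, against -1.83, -2.09, -0.12, -1.08 and -0.86 in the 5 virgin glands. All tumors were far above all glands (difference 5.57 ± 0.40, adjusted p = 1.48e-09). Itga8, Itgb3 and Itga6 were also higher without overlap, at 3.98-fold, 3.03-fold and 1.86-fold. Itgb3 had virgin gland values of -0.22, 0.27, -0.26, -0.09 and -0.37, all below the lowest Neu tumor at 0.94. Col9a1 was higher by the mean of its clones, but 1 clone was 34.4-fold higher and the other lower (difference -0.60), and the clones of Lama4 disagreed in the same way (1.90 and -0.63). Adam9 also had clones that passed in opposite directions. The calls of Lama4 (adjusted p = 0.033) and Adam22 (adjusted p = 0.0438) were each lost without 4 of the 5 single glands, with adjusted p from 0.0516 to 0.142.

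Col3a1 had -3.22, -1.05 and 0.52 in Neu tumors, against 2.28, 2.58, 2.79, 2.46 and 2.46 in virgin glands. No Neu tumor came near the lowest gland, and the tumors spread over a wider range than the glands (difference -3.66 ± 0.49, adjusted p = 4.57e-06). Timp2 had -2.36, -1.22 and -0.55 in Neu tumors, against 0.54, 1.26, 1.81, 1.62 and 1.61 in virgin glands (difference -2.76 ± 0.29, adjusted p = 2.46e-07). Both TIMPs, 4 of 7 MMPs and 5 of the 8 other collagens were lower, Mmp2 by 3.81-fold and Timp4 by 3.23-fold. Of the integrins 5 were higher and 7 lower. Itga11, part of a fibroblast receptor for fibrillar collagen, was 2.85-fold lower and Itgb2 2.17-fold lower. Col4a1 was 2.86-fold lower and Col14a1 3.26-fold lower, both without overlap. Of the 17 matrix partners 11 were lower and 2 higher, with Lum 17-fold and Nid1 7.43-fold lower. In the same comparison all 9 adipocyte markers, 5 of 6 fibroblast, all 6 endothelial and all 5 skeletal muscle markers were lower, and the fibroblast level was -1.85 to -0.26 in Neu tumors and 0.90 to 1.24 in virgin glands. Their part in the lower matrix genes was not tested.

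Wnt-1 tumors, set against the same 5 virgin glands, had 11 of the 67 genes higher and 26 lower (55.2%), where 52.4% of all genes passed (26% higher and 26.5% lower). The share of these genes was close to that of all genes. Groups did not overlap in 11 of the 67, beside 20.4% of all genes. Col7a1 had virgin gland values of 0.70, 0.48, 0.13, 0.18 and 0.44, all below the lowest Wnt-1 tumor at 1.29 (3.54-fold higher, adjusted p = 2.38e-06). Itga6 had 0.64, 0.91 and 1.35 in Wnt-1 tumors, against -0.55, -0.16, -0.26, -0.31 and -0.26 in virgin glands, and Itga3 had 0.34, 0.69 and 0.98, against -0.68, -0.62, -0.46, -0.50 and -0.60. Both laminin receptor chains were thus higher in every tumor, at 2.42-fold (adjusted p = 4.64e-12) and 2.38-fold (adjusted p = 5.4e-13). Col11a1 was 4.8-fold higher, Col14a1 2.01-fold and Col4a1 1.96-fold higher. Col14a1 and Col4a1 therefore differed from virgin glands in opposite directions in the tumor models, as did Col7a1, which was 1.62-fold lower in Neu tumors.

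Col3a1 was again the member most below virgin glands, with -2.02, 0.49 and 1.82 in Wnt-1 tumors, all under the lowest gland at 2.28 (4.45-fold lower, adjusted p = 1.34e-05). Adam12 was 3-fold lower and Timp4 2.79-fold lower. Itga11 and Itga1, the collagen receptor chains, were 2.58-fold and 2.2-fold lower, without overlap. Itga7, a laminin receptor of muscle, was 3.03-fold lower (adjusted p = 0.037), but virgin gland 13 had -1.82 where the other 4 glands ran from 1.17 to 2.12, and Wnt-1 tumor 42 had -6.28. Without virgin glands 17, 27, 28 or 29 in turn its adjusted p was 0.0745 to 0.126. Col4a6 was lower by its mean but its 2 clones passed in opposite directions (-1.80 and 0.22), as did the clones of Lama2 (-2.19 to 0.71). All 6 fibroblast, all 9 adipocyte, all 5 skeletal muscle and 5 of 6 endothelial markers were lower in Wnt-1 tumors and all 4 luminal epithelial markers higher. The skeletal muscle level was -2.39 to 0.77 in Wnt-1 tumors and 2.90 to 3.71 in virgin glands, and the luminal level 0.96 to 2.10 in Wnt-1 tumors and -0.45 to 0.30 in virgin glands. Their part was not tested.

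Hyperplastic glands of MMTV-Wnt-1 mice were compared with virgin glands, and Wnt-1 tumors with hyperplastic glands, to separate the steps of progression. The first step was tested on 7 against 5 arrays and the second on 23 against 7. Their counts can therefore not be compared directly. In hyperplastic glands 5 of the 67 were higher and 7 lower (17.9%), beside 23.8% of all genes (9.58% higher and 14.3% lower), and none that passed exceeded 1.79-fold. Itga6 had 0.27, -0.01, -0.09, 0.03, 0.11, 0.04 and 0.27 in the 7 hyperplastic glands, all above the highest virgin gland at -0.16 (1.32-fold higher, adjusted p = 0.00852). Col6a6 was also higher without overlap, at 1.33-fold. Lamc3, the gamma3 laminin chain (1.34-fold), Lamc1 (1.24-fold) and Itga8 (1.28-fold) were higher with overlap. Only 1 of the 2 Lamc1 clones passed (differences 0.67 and -0.06). Lamc3 and Lamc1 had adjusted p from 0.0632 to 0.0864 after leaving out virgin gland 13, 17, 28 or 29 (Lamc1 also without 27), and Itga8 from 0.1 to 0.112 after leaving out 27, 28 or 29.

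After quantile normalization 8 were higher and 5 lower, beside 23.7% of all genes that passed. Timp2 (adjusted p = 0.0793) and Mmp2 (adjusted p = 0.227) then lost their calls. Without that step the lower genes included receptor chains and both TIMPs. Itga1 had -0.36, -0.30, -0.33, -0.35, -0.53, 0.01 and -0.18 in hyperplastic glands, against 0.19, 0.17, 0.85, 0.78 and 0.66 in virgin glands, without overlap (1.77-fold lower, adjusted p = 0.00102). Itga11 was 1.44-fold lower, also without overlap. Itgb5 was 1.79-fold lower (adjusted p = 0.00406), Thbs3 1.53-fold, Timp2 1.69-fold, Timp4 1.36-fold and Mmp2 1.32-fold. The calls of Timp2, Timp4 and Mmp2 were each lost without at least 3 single virgin glands, with differences from -0.69 to -0.33 and adjusted p from 0.0524 to 0.0813. The groups did not overlap in 4 of the 67 genes, beside 12.5% of all genes. Of 9 adipocyte markers 8 were lower in hyperplastic glands, as were 4 of 6 endothelial markers (levels -0.77 to -0.55 in hyperplastic glands and -0.35 to 0.21 in virgin glands). Of 4 luminal epithelial markers 3 were higher (levels 0.48 to 1.28 in hyperplastic glands and -0.45 to 0.30 in virgin glands). Their part was not tested.

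From hyperplastic glands to tumors 9 of the 67 genes were higher and 20 lower (43.3%), beside 44.1% of all genes (21.9% higher and 22.2% lower). The members gave a share like that of all genes, with a median difference of -0.18, and -0.03 over all genes. Of the 6 laminins 1 was higher and 2, Lamc3 and Lama2, lower. The clones of Lama2 passed in opposite directions (differences from -1.89 to 1.13). Of the 12 integrins 4 were higher and 3 lower, and of the 4 basement membrane and anchoring fibril collagens 2 were higher and 1, Col4a6, lower. Itga3 was higher in every tumor than in every hyperplastic gland (2.06-fold, adjusted p = 7.71e-12), as were Lama5, a chain of epithelial laminins (1.97-fold, adjusted p = 1.57e-07), and Itga6 (1.84-fold, adjusted p = 4.71e-10). Col7a1, Col14a1 and Col4a1 were 2.42-fold, 2.33-fold and 2.22-fold higher. Col11a1 had -3.71, 1.35 and 2.90 in Wnt-1 tumors, against -2.69, -1.68 and -0.64 in hyperplastic glands (7.34-fold higher, adjusted p = 1.32e-05), with 22 of 23 tumors above all glands and Wnt-1 tumor 38 below them all.

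Among the 20 lower genes Col3a1 had the greatest difference, with -2.02, 0.49 and 1.82 in Wnt-1 tumors, against 1.68, 2.50 and 3.15 in hyperplastic glands, and 22 of 23 tumors lay below all glands (3.9-fold lower, adjusted p = 1.12e-05). Lamc3 had -3.44, -0.94 and -0.50 in Wnt-1 tumors, against -0.12, 0.34 and 0.73 in hyperplastic glands, without overlap (2.69-fold lower, adjusted p = 8.83e-05). Timp4 had -1.99, -0.77 and -0.42 in Wnt-1 tumors, against -0.04, 0.19 and 0.58 in hyperplastic glands, again without overlap (2.04-fold lower, adjusted p = 3.29e-07). Itga11 was 1.79-fold lower without overlap. Of the MMPs 4 of 7 were lower, Mmp2, Mmp3, Mmp19 and Mmp23, and none higher. The call of Mmp2 (adjusted p = 0.0484) was lost with each array centred on its median (0.0577) and without the arrays of SD over 1.3 (0.0604). The groups did not overlap in 6 of the 67 genes, beside 8.14% of all genes. All 6 fibroblast, 8 of 9 adipocyte and all 5 skeletal muscle markers were lower in the tumors, and 3 of 4 luminal epithelial markers were higher (levels 0.96 to 2.10 in Wnt-1 tumors and 0.48 to 1.28 in hyperplastic glands). Their part was not tested.

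**Figure D4:**
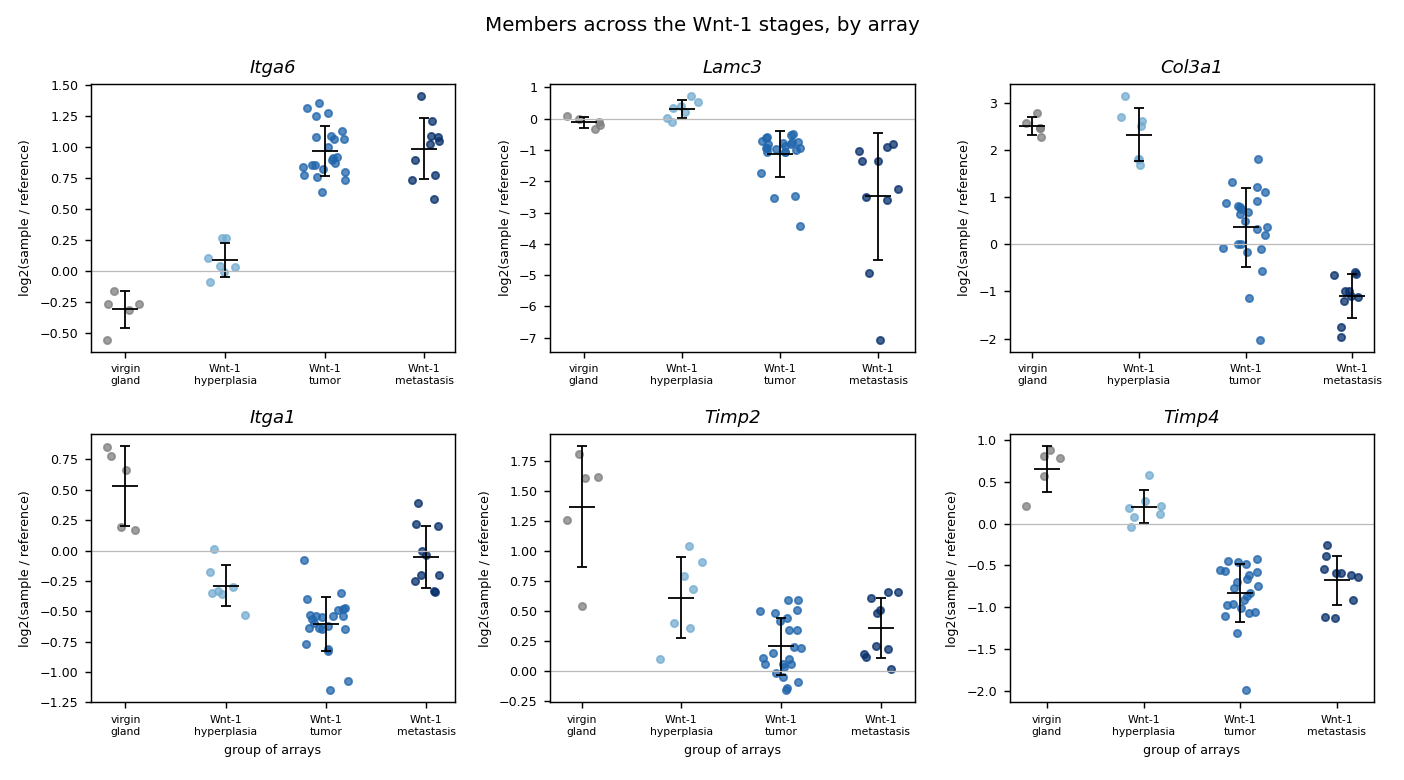
Log2 ratio of sample to reference on every array (points) for 6 genes along the Wnt-1 series of virgin glands, hyperplastic glands, tumors and lung metastases, with the mean and SD in black. Itga6 lies higher and Itga1 lower in all hyperplastic glands than in all virgin glands, Lamc3 and Timp4 are lower in all tumors than in all hyperplastic glands, and Col3a1 has no value above -0.58 in the metastases.

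Lung metastases of MMTV-Wnt-1 mice were compared with Wnt-1 tumors, and those of Neu tumor cells with Neu tumors. Wnt-1 metastases had less of 2 of the 3 thrombospondins, Thbs2 and Thbs4, and of 2 of the 7 fibrillar collagens, Col3a1 and Col5a2, than the tumors. In Wnt-1 metastases 4 of the 67 genes were higher and 5 lower (13.4%), beside 5.46% of all genes (2.88% higher and 2.58% lower). No gene of the 67 was free of overlap, where 0.27% of all genes were. Col3a1 had -1.96, -1.04 and -0.58 in Wnt-1 metastases, against -2.02, 0.49 and 1.82 in Wnt-1 tumors (2.75-fold lower, adjusted p = 0.000559). The metastases lay within the lower part of the tumor range. Thbs2, a matrix protein known to restrain vessel growth, had -3.32, 0.04 and 0.91 in Wnt-1 metastases, against 0.23, 1.55 and 2.56 in Wnt-1 tumors (3.25-fold lower, adjusted p = 0.000292). Its lowest value came from metastasis 50, and without the arrays of SD over 1.3 the difference was -1.25 (adjusted p = 0.00245). Thbs4 was 2.59-fold lower, Col5a2 1.6-fold and Col6a1 1.5-fold.

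Col23a1, a transmembrane collagen, had -0.02, 0.77 and 1.27 in Wnt-1 metastases, against -2.11, -0.34 and 0.03 in Wnt-1 tumors (2.21-fold higher, adjusted p = 8.41e-05), and 8 of 10 metastases were above all tumors. Adam19 was 1.59-fold, Itga8 1.48-fold and Itga1 1.47-fold higher. The call of Itga8 was lost without the arrays of SD over 1.3 (difference 0.47, adjusted p = 0.065). A further fit took only tumors and metastases that share a sample number, blocked by that number. In it Col23a1, Adam19, Itga8, Thbs2, Thbs4 and Col6a1 kept their direction but lost their calls (adjusted p from 0.071 to 0.443). In the same samples 4 of 6 lung epithelium markers were higher, Scgb1a1 by 170-fold and Sftpc by 80.3-fold, and 4 of 6 endothelial markers were higher, while 2 of 6 fibroblast markers were lower (levels -2.27 to -0.76 in Wnt-1 metastases and -1.25 to 0.11 in Wnt-1 tumors). How much of the RNA for these 9 genes came from lung tissue was not tested.

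In Neu metastases none of the 67 genes passed limma's test, where 0.219% of all genes did (0.206% higher and 0.0129% lower). An unadjusted p under 0.05 was found for 10 of the 67, beside 7.26% of all genes. The smallest p was that of Col6a1 (-2.26, -1.85 and -2.42 in metastases of MMTV-Neu mice and -2.27 and -2.62 after tail-vein injection, against a range of -2.22 to -1.05 in Neu tumors, adjusted p = 0.243). The interaction between oncogene and site, which tests whether the change in metastases differed between the models, passed in none of the 67 and in 0.103% of all genes (0.0901% higher and 0.0129% lower). At an unadjusted p under 0.05 it held for 9 of the 67 and for 7.92% of all genes, and its smallest adjusted p was that of Col5a3 (0.0879). A change in Wnt-1 metastases is therefore not shown to be absent in Neu metastases.

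Between metastases of the 2 models Col14a1, Col7a1 and Col4a1 were again the highest of the set and Col11a1 the lowest. Wnt-1 metastases had 19 of the 67 genes higher and 10 lower than Neu metastases (43.3%), where 23.4% of all genes passed (11.2% higher and 12.2% lower). The groups did not overlap in 11 of the 67, beside 9.61% of all genes. Col14a1 had 0.86, 1.54 and 2.47 in Wnt-1 metastases (lowest, median and highest), against -1.24, -1.33 and -1.14 in Neu metastases and -2.13 and -0.76 in tail-vein metastases (7.52-fold higher, adjusted p = 2.26e-06). Col7a1 and Col4a1 were 5.93-fold and 4.67-fold higher and Timp2 3.38-fold higher, all without overlap. Col11a1 had -0.44, 0.23 and 1.85 in Wnt-1 metastases, against 3.50, 3.79 and 2.58 in Neu metastases and 3.63 and 5.99 in tail-vein metastases. It was 10.6-fold lower without overlap (adjusted p = 0.000228). Itga8 and Itgb5 were 2.47-fold and 2.45-fold lower without overlap, and Itgb3 2.67-fold lower with overlap. Without the 2 tail-vein metastases 19 of the 67 passed, beside 16.6% of all genes. Mmp2, Lamb2, Mmp27, Mmp3 and Col4a6 were among the calls lost. Col6a3, Mmp2 and Col4a6 were each lost without at least 3 single Neu metastases (adjusted p from 0.0614 to 0.128). Of 5 myoepithelial markers 4 were higher in Wnt-1 metastases (levels 0.32 to 1.45 in Wnt-1 metastases and -1.24 to -0.92 in Neu metastases), as were 5 of 6 endothelial markers. Lung epithelium markers also differed, with 4 of 6 higher and 1 lower. Their part was not tested.

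Intestinal fat served as a sample of tissue rich in adipocytes, which also surround the mammary epithelium. Compared with virgin glands, fat had more of the vascular laminin chain Lama4, of Mmp23 and Timp4 and of the collagen receptor chain Itga1, and less of the epithelial laminin receptor chain Itga3. Of the 67 genes 8 were higher and 2 lower (14.9%), beside 7.49% of all genes (4.3% higher and 3.19% lower). With 3 against 5 arrays, groups did not overlap in 28 of the 67, beside 27.8% of all genes. The median difference was 0.11 over the 67 genes and -0.13 over all genes. With each array centred on its median 10 of the 67 were higher and 2 lower, beside 8.27% of all genes. Lama4 had 1.76, 1.04 and 1.32 in fat, against 0.08, -0.03, 0.22, 0.04 and 0.10 in virgin glands (2.45-fold higher, adjusted p = 0.00668). Mmp23 had 1.72, 1.52 and 1.39 in fat, against 0.29, 0.40, 0.55, 0.56 and 0.43 in virgin glands (2.14-fold higher, adjusted p = 0.00381). Itga11 had -0.55, -0.39 and -0.15 in fat, against 0.63, 0.87, 0.74, 0.98 and 0.80 in virgin glands (2.25-fold lower, adjusted p = 0.00435). Itga1 and Timp4 were 1.98-fold and 1.88-fold higher, Adam15 1.9-fold and Col4a1 1.83-fold. The clones of Timp4 disagreed (2.05 and -0.24), and only the first passed. Itga3 was 1.57-fold lower. Itga1, Timp4, Col4a1, Itga5, Mmp19 and Itga3 each lost their call without at least 2 single arrays (adjusted p from 0.0536 to 0.112). Without fat 44, the array of widest spread, 9 of the 67 genes were higher and 7 lower, and 12.9% of all genes passed. After quantile normalization the split was 6 higher and 9 lower, and 8.33% of all genes passed. Of 9 adipocyte markers 8 were higher in fat, and 4 of 5 skeletal muscle markers (levels -0.88 to -0.37 in fat and 2.90 to 3.71 in virgin glands) and 2 of 4 luminal epithelial markers were lower. Their part was not tested.

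Set against all 35 tumors, fat had 22 of the 67 genes higher and 12 lower (50.7%). Of all genes 54.2% passed (21.2% higher and 33% lower). The median difference was 0.44 over the 67 genes and -0.14 over all genes. Timp4 had 1.47, 1.67 and 1.54 in fat and was 5.5-fold higher (adjusted p = 4.67e-13), and Col6a1 was 4.75-fold higher. Itga7 had 6.31 on fat 44 and 2.95 and 3.05 on the other fat arrays, above every tumor. Several lower genes rested on fat 44, where Itga8 was -10.29, against -2.43 and -2.47 on the other fat arrays. Without fat 44 the difference was -2.46 for Itga8, in place of -5.07, and -3.93 for Col11a1, in place of -5.97, and both passed. Without it Itgb3, Col9a1 and Col23a1 no longer passed, and Lamc1 changed direction. The clones of Lamc1 had passed in opposite directions with all arrays (-3.24 and 1.06), as had those of Col9a1 (-5.77 and 0.62). All 9 adipocyte, all 6 endothelial and 4 of 6 fibroblast markers were higher in fat and 3 of 4 luminal epithelial markers lower (levels -5.98 to -2.04 in fat, 0.96 to 2.10 in Wnt-1 tumors and -0.14 to 0.77 in Neu tumors). Their part was not tested.

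Fibrillar collagen chains, and laminin chains, were also compared with each other across tumors of each model, as 12 correlations over 6 pairs of genes. Col3a1 and Col5a2 went together in Wnt-1 tumors (n = 23, r = 0.782, permutation p = 1e-05, the smallest that 100000 permutations can give; rho = 0.704, permutation p = 0.00027) and in Neu tumors (n = 12, r = 0.932, permutation p = 4e-05; rho = 0.916, permutation p = 0.00011). After Benjamini-Hochberg adjustment over the 12 these p-values lay between 0.00012 and 0.0014, and without the 2 tumors farthest from the median of Col3a1 r was 0.565 and 0.877. Col1a1 and Col3a1 had r = 0.704 in Neu tumors (permutation p = 0.0109, adjusted 0.0326) and rho = 0.727. In Wnt-1 tumors they had r = 0.3 (permutation p = 0.156) and rho = 0.694 (permutation p = 0.00035), and r was 0.719 without the 2 tumors farthest from the median, one of them tumor 42 with a Col1a1 value of -6.70. Col1a1 and Col5a2 gave r = 0.836 in Neu tumors (permutation p = 0.00078) and r = 0.047 in Wnt-1 tumors (permutation p = 0.83), where r was 0.657 without the 2 farthest. The laminin chains Lamb2, Lama2 and Lama4 had no correlation with Lamc1 that passed the adjustment (r from -0.549 to 0.508). All pairs share an array and its stromal content, and the labels give no batch within which to repeat them.

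**Figure D5:**
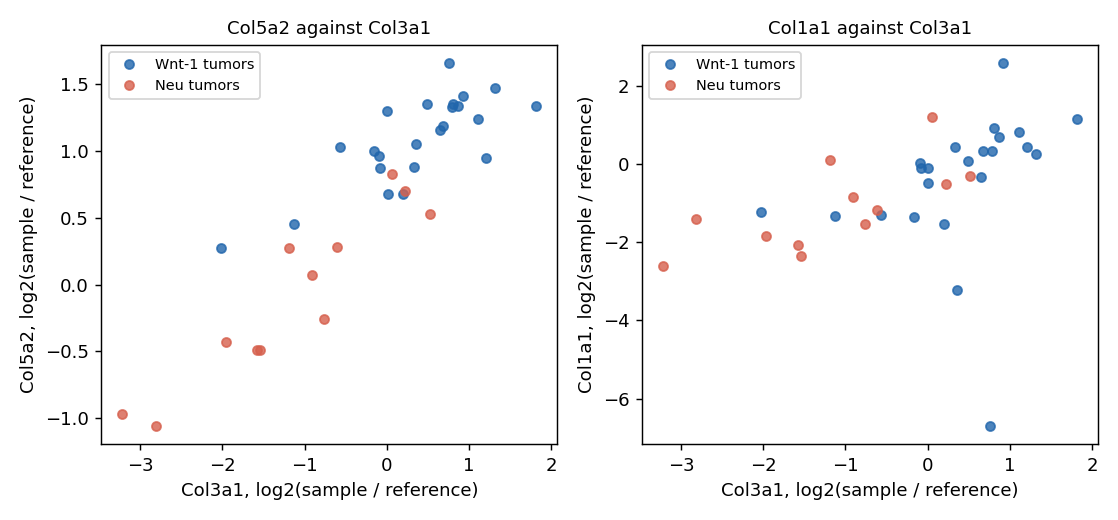
Col5a2 (left) and Col1a1 (right) against Col3a1, as log2 ratios to the reference, in 23 Wnt-1 tumors (blue) and 12 Neu tumors (red), 1 point per tumor. Col5a2 lies along Col3a1 in both models (r = 0.782 and 0.932), and on the right Wnt-1 tumor 42 lies alone at a Col1a1 value of -6.70.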

How the data were processed

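RNA of 65 samples was measured on 15k cDNA arrays against a common reference. The authors scanned the slides, scored spot quality and normalized each array. What the authors deposited is the log2 of each normalized Cy5 to Cy3 ratio, and the quality filter was not repeated. Ratios under 0.01 were whole multiples of 1e-04 within a tolerance of 0.02, which sets the log base at 2. Tumors measured on another array type of the series were not used here. Clones with a single symbol (11860, with 705 of several and 2795 of none) were averaged to 7766 genes. Groups were taken from the labels, which do not say for every sample that it came from a separate animal, so p-values measure the spread between these samples. The number of arrays limits the precision.

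For each pair of groups lmFit and eBayes of limma 3.58.1 were run under R 4.3.3. A gene needed values on 50% of each group's arrays, and on no fewer than 2. P-values were adjusted by Benjamini-Hochberg over all genes, with a threshold of 0.05. The interaction of oncogene and metastasis used the tumors and metastases of both models in one fit. Folds are ratios of geometric means. Correlations used 100000 permutations, two-sided. Sequences came from the RefSeq promoter table, and the motifs were chosen after the windows had been searched. The fits were tested on simulated data. Named genes are up to 10 higher and 10 lower genes of largest difference among those that passed, with values by sample for the first 3, and further genes were chosen to describe each family after their values were seen. The genes and lists were chosen with earlier results of these data known. Alternatives were array centring, quantile normalization, extreme ratios set missing, arrays of SD over 1.3 left out, fits by clone, all groups in one fit, eBayes with trend and robust, genes with a value on every array, the methods' permutation t-test and blocks by sample number. Single virgin gland, fat and Neu metastasis arrays were also left out in turn, but not single Wnt-1 or Neu tumors, hyperplastic glands or Wnt-1 metastases. The marker lists were fibroblast, adipocyte, endothelial, myoepithelial, luminal epithelial, skeletal muscle, lung epithelium and leukocyte. Some lists overlapped. The leukocyte list held Itgb2, and the fibroblast list shared Dcn, Lum, Dpt and Fn1 with the matrix partners and Fap with the other proteases.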

Additional observations from a re-analysis of the deposited data

Results flagged for a closer look

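Of 47 sets of values of the named genes in groups of 5 to 10 arrays, 3 held an array far from the others by Dixon's test, and chance flags about 1 in 20. Tail-vein metastasis 53 had a Col7a1 value of -1.41, where the other 4 Neu metastases ran from -0.51 to -0.34. Virgin gland 13 had an Itga7 value of -1.82, where the other 4 glands ran from 1.17 to 2.12. Wnt-1 metastasis 50, an array of wide spread, had a Thbs2 value of -3.32, where the other 9 ran from -0.30 to 0.91.

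For 5 genes the tumors of the 2 models departed from virgin glands in opposite directions, each departure passing limma's test. The genes were chosen by these opposite calls, and the difference between the models is the Wnt-1 departure minus the Neu departure. That it also passed adds no separate support. The share of all genes with such opposite calls was not counted. Col14a1 was 1.00 above virgin glands in Wnt-1 tumors and fell by 1.70 in Neu tumors on the log2 scale, a difference between the models of 2.71 (adjusted p = 1.7e-13). Col4a1 was 0.97 above in Wnt-1 tumors and fell by 1.51 in Neu tumors, a difference of 2.48 (adjusted p = 1.24e-16). Col7a1 was 1.83 above and fell by 0.69, a difference of 2.52 (adjusted p = 1.37e-12). Col5a3 fell by 0.55 in Wnt-1 tumors and was 0.32 above virgin glands in Neu tumors, a difference of -0.87 (adjusted p = 2.64e-11). Itgb5 fell by 0.38 in Wnt-1 tumors and was 0.75 above in Neu tumors, a difference of -1.13 (adjusted p = 2.04e-11). Both departures of a gene share the same 5 virgin glands. Col4a1, Col7a1, Col5a3 and Itgb5 each rested on 1 clone.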

How the results depend on the processing

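Of 156 counts of called genes under the alternatives, 128 stayed within 1.5 times the reported count and 28 did not. Percentages in brackets are the shares of all genes that passed under the same setting. With the methods' permutation t-test at P under 0.001 the count was 3 for hyperplastic against virgin glands (10%). It was 18 for Wnt-1 tumors against hyperplastic glands (28.6%), and 25 for Neu tumors (32.9%) and 21 for Wnt-1 tumors (35.8%) against virgin glands. It was 19 for Wnt-1 against Neu metastases (13.4%) and 13 for fat against tumors (19.4%). For hyperplastic against virgin glands it was 6 with all groups in one fit (none higher, 16.4%) and 6 by clone (16.6%). Without single virgin glands it was 6 to 19, with 6 without gland 28 (16.4%), 7 without 29 (17.2%) and 19 without 13 (26%). Quantile normalization turned its split to 8 higher and 5 lower (23.7%). For fat against virgin glands it was 17 with extreme ratios missing (12.7%), 16 without wide arrays (12.9%) and 6 by clone (6.16%). It was 27 with all groups in one fit (31.5%) and 20 by the methods' t-test after Benjamini-Hochberg (16%). Without single arrays it was 5 to 16, with 16 without fat 44 (12.9%) and 5 without fat 45 (3.53%). Without virgin gland 17, 27 or 28 it was 5 (2.73% to 3.17%), and 6 without 29 (3.1%). Quantile normalization split it into 6 higher and 9 lower (8.33%). Without the 2 tail-vein metastases 19 genes passed between Wnt-1 and Neu metastases (16.6%). In Neu metastases against Neu tumors 1 gene passed after quantile normalization (0.232%) and 1 with all groups in one fit (0.361%). The interaction gave 1 after quantile normalization (0.27%) and 0 to 1 without single Neu metastases (1 without tail-vein metastasis 53, 0.129%). The calls of Itga8 and Adamts4 in Wnt-1 tumors against virgin glands and of Fbn2 in fat against tumors were also lost without single arrays. The cause was not tested.

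Lamc1 in fat against tumors reversed to 0.48 with extreme ratios missing, to 0.13 without wide arrays and to 0.09 without fat 44, whose value was -2.64, and its range without single fat arrays was -1.76 to 0.09. Of 1588 values of named genes under alternatives 1447 kept direction and call, 138 lost the call and 3 reversed. The Lamb2 and Lamc1 correlation in Wnt-1 tumors turned from -0.237 to 0.004 without the 2 farthest tumors.

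Sample numbers are shared by tumors and metastases, and by the tail-vein metastases with other Neu metastases. The labels do not say that the numbers mark an animal. Deviations of same-numbered tumors and metastases correlated from -0.063 to 0.304 (Wnt-1) and -0.113 to 0.178 (Neu). Such correlations cannot show whether the samples came from separate animals. The numbers were not taken as pairs. With a fixed replicate block over same-numbered arrays 3 of the 67 genes passed in Wnt-1 metastases, beside 0.888% of all genes. With a random block 9 passed, the reported count, beside 6.37% of all genes. Of 10 planned pairs of partner chains none had both genes on the arrays, and 6 others were chosen after seeing which genes they hold. Clones of a gene passed in opposite directions in at least 1 comparison for Adam9, Col4a6, Col6a6, Col9a1, Itga4, Itga11, Lama2, Lama4 and Lamc1. Col1a1, examined under the alternatives after the data had been seen, passed with extreme ratios missing in Wnt-1 against Neu tumors (0.98, adjusted p = 0.0453) and against hyperplastic glands (1.66) and in Wnt-1 against Neu metastases (1.59, adjusted p = 0.0369), and after quantile normalization against hyperplastic glands (2.14).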
